A study of Mus musculus with 14 samples.

Results

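The genes described here are 4 sodium channel subunits (Scn4a, Scn7a, Scn3b and Scn4b) and 4 connexins (Gja1, Gja4, Gja5 and Gjc1) in the mouse left ventricle. They were taken by gene symbol, 8 of the 49315 genes in the count table and 8 of its 34 genes for sodium channel subunits and connexins. Poly(A) RNA of left ventricles was sequenced 5 weeks after surgery from male mice that were 10 to 12 weeks old when operated. WT mice were compared with HCN4F mice, in which a germline knock-in exchanges a tyrosine of the pacemaker channel HCN4 for phenylalanine, which makes the channel open more readily and the heart beat faster. The knock-in is present in all tissues. Surgery was transverse aortic constriction (TAC), a band around the aortic arch that loads the left ventricle with pressure, or a Sham operation without the band. WT-Sham, HCN4F-Sham and HCN4F-TAC each had 4 libraries, and WT-TAC had 2, numbered 2 and 3 (further WT-TAC samples of the study were not analysed here).

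Voltage-gated sodium channels carry the inward current that starts the action potential of working myocardium and of the fast conduction system. Their alpha subunits form the pore, and their beta subunits are small membrane proteins that change gating and help to place the channel in the membrane. Connexins assemble into gap junctions, through which the current passes from cell to cell. In ventricular myocytes these junctions lie in the intercalated disc beside desmosomes and adherens junctions, whereas other connexins serve the conduction system, the vessel wall and nerve sheath cells.

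The libraries held 22309914 to 35210939 counted reads. At these depths a gene without any read may still have a level equal to 3 reads, which is 0.0852 to 0.134 CPM, from counting error alone. CPM is a gene's count per library total, scaled to a fixed total by edgeR with TMM, which corrects for the composition of each library. All 8 genes passed the filter on low counts, as did 15292 genes of the table. The summed CPM of 8 cardiomyocyte markers was lower in every TAC library than in every Sham library of the same genotype, with 79496 to 81452 in WT-Sham, 72253 and 73834 in WT-TAC, 69267 to 77083 in HCN4F-Sham and 56617 to 67230 in HCN4F-TAC. The sum was also lower in every HCN4F-Sham than in every WT-Sham library. Of the 15292 single genes, 39.2% did not overlap between the WT groups, 15.1% between the HCN4F groups and 8.56% between the Sham groups. Myh6 had the highest median of the 8 markers (29507 CPM), and 2 of the 8 were higher after TAC in WT and 1 in HCN4F. The part of this sum in the results was not tested. Among 5 atrial markers, Myl7 reached 9.91 CPM and Myl4 17.4 CPM in HCN4F-TAC replicate 2, against medians of 0.0881 and 1.83 CPM over all libraries. The sum of the 5 was 43.4 CPM there, 22.7, 23.2 and 25.7 CPM in the other HCN4F-TAC libraries and 37.7 to 48.9 CPM in WT-Sham. Kcnj3, with the highest median of the list (32.2 CPM), was below that median in this library. Several results for which this library was extreme are also given without it. HCN4F-Sham replicates 1, 2 and 3 each stood apart from the rest of their group for some of the 8 genes, as stated beside these genes.

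Per kilobase of exon, Gja1 had the highest level of the 8 genes, with a mean of 27.9 CPM per kb ± 3.97 (SD, n = 14 libraries). Gja1 encodes the main gap junction protein of ventricular myocytes. It was followed by Gja4 with 9.13 ± 2.24 CPM per kb, a connexin of arterial endothelium. No library of Gja4 reached the lowest level of Gja1, and none of Gjc1 reached the lowest level of Gja4. The next genes were Gjc1 (3.51 ± 0.388 CPM per kb), Scn4a (2.80 ± 0.698), Scn7a (2.25 ± 0.376), Scn4b (1.56 ± 1.00) and Gja5 (1.27 ± 0.294). In this middle part of the order, each gene's range over the libraries overlapped that of the next. Scn3b was lowest with 0.148 ± 0.0414 CPM per kb, and no library of it reached the lowest level of Gja5.

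**Figure D1:**
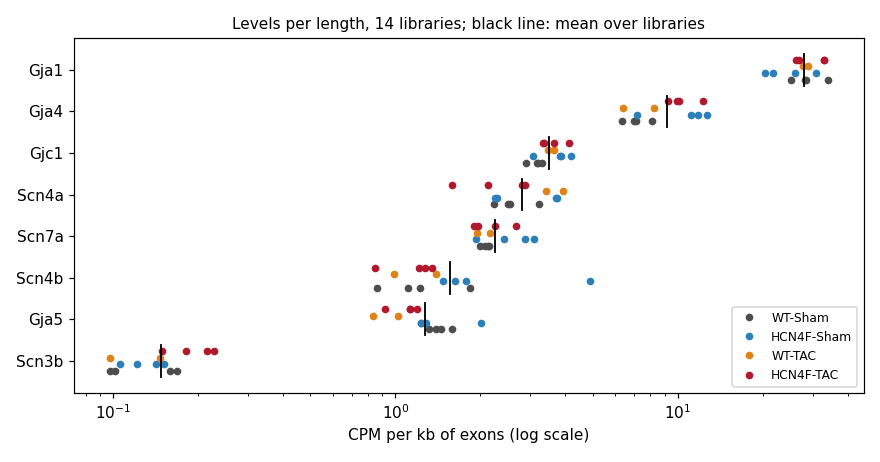
Level per exon length of the 8 genes (CPM per kb, log scale) in 14 libraries, with points coloured by group and a black line at the mean over all libraries. Gja1 lies apart at the top with a mean of 27.9 CPM per kb and Scn3b at the bottom with 0.148 CPM per kb.

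The study asked how pressure overload changes gene expression in each genotype and how the genotypes differ before and after it. For each comparison the quasi-likelihood test of edgeR was used, its p-values were adjusted by Benjamini-Hochberg over all tested genes, and genes with an adjusted p under 0.05 and a log2 fold change beyond 1 in either direction counted as called. None of the 8 genes was called in any of the 4 comparisons. Of all tested genes, 0.706% were called for TAC against Sham in WT, 2.75% for TAC against Sham in HCN4F, 0.209% for HCN4F against WT in Sham and 0.0719% for HCN4F against WT in TAC. DESeq2 also called 0 of the 8 in each comparison. Unadjusted p in edgeR was under 0.05 for 1 of the 8 genes after TAC in WT (22.0% of all tested genes), 3 after TAC in HCN4F (28.3%), 4 between the Sham groups (15.2%) and 2 between the TAC groups (12.5%). The genotype by surgery interaction, which asks whether the TAC responses differ between genotypes, had an adjusted p under 0.05 for 0 of the 8 genes and 0.00% of all tested genes, and an unadjusted p under 0.05 for 1 of the 8 (9.27% of all). The groups did not overlap for 3 of the 8 genes after TAC in WT (39.2% of all tested genes), 2 after TAC in HCN4F (15.1%), 0 between the Sham groups (8.56%) and 3 between the TAC groups (22.2%). The median log2 fold change of the 8 genes lay between -0.14 and 0.21 in these 4 comparisons, beside -0.0231 to 0.0048 for all tested genes.

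Because the study crosses genotype with surgery, each factor was also tested as an average over the other in the same edgeR fit. These averaged contrasts were chosen after the values had been seen. Gja5 fell after TAC, with an averaged log2 fold change of -0.52 (standard error 0.12, 95% interval -0.77 to -0.26, edgeR adjusted p = 0.00649), and was the only 1 of the 8 genes under 0.05, beside 21.4% of all tested genes (34.7% at an unadjusted p under 0.05). Gja4 was higher in HCN4F hearts, with an averaged log2 fold change of 0.54 (standard error 0.12, 95% interval 0.29 to 0.80, edgeR adjusted p = 0.0426), again the only 1 of the 8 genes, beside 1.26% of all tested genes (18.1% at an unadjusted p under 0.05). These averages reuse the libraries of the separate comparisons and are not further evidence beside them.

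**Figure D2:**
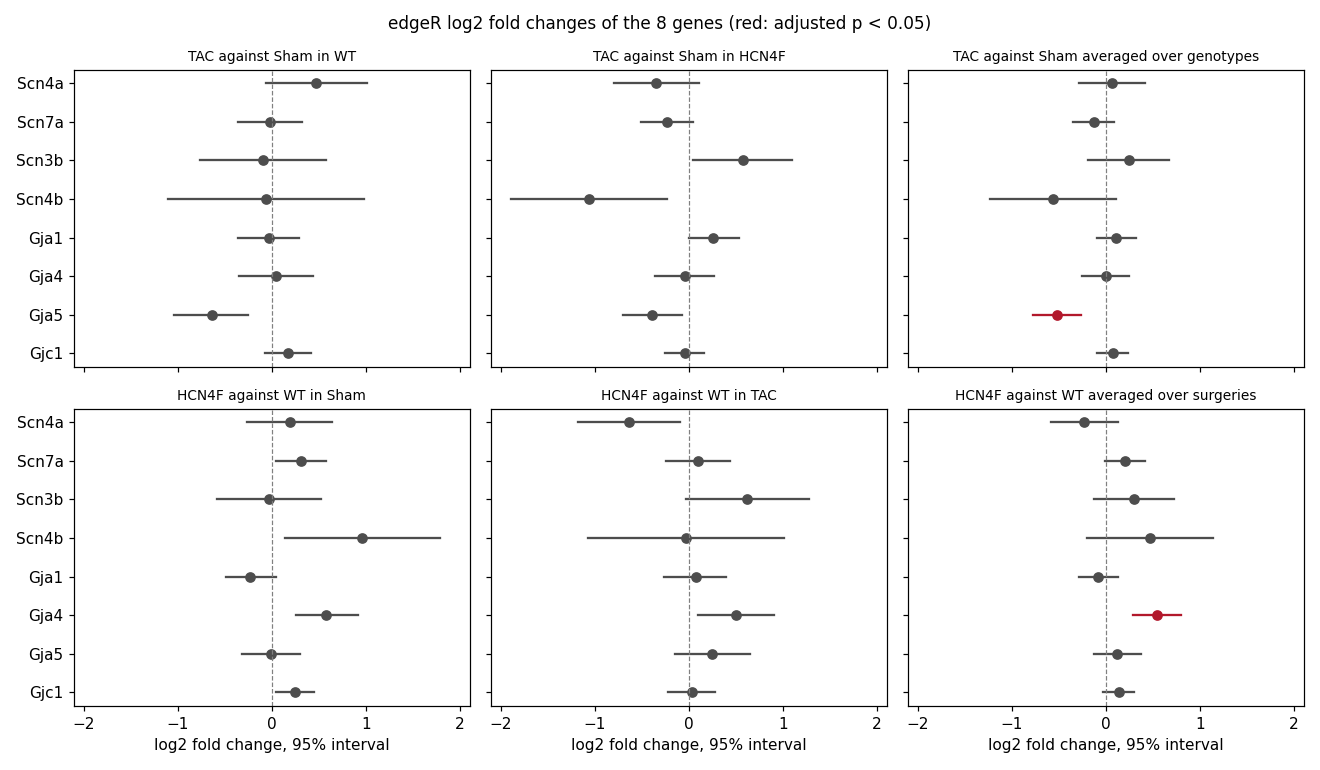
Log2 fold changes of the 8 genes with 95% intervals from edgeR's quasi-likelihood test, for the TAC comparisons (top) and the genotype comparisons (bottom), each within the separate groups and averaged. Only Gja5 for the averaged TAC effect (-0.52) and Gja4 for the averaged genotype effect (0.54) have an adjusted p under 0.05 (red).

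Gja5 (ENSMUSG00000057123, chr3:96904693-97077416, plus strand, GRCm38) encodes a connexin of the His-Purkinje system, of atrial myocytes and of arterial endothelium. It had 8.32, 7.58, 7.99 and 9.11 CPM in WT-Sham and 5.83 and 4.78 CPM in WT-TAC. In HCN4F hearts it had 7.08, 11.5, 7.05 and 7.37 CPM in Sham and 6.51, 6.52, 5.30 and 6.83 CPM in TAC. In both genotypes every TAC library lay below every Sham library, and the level in HCN4F-Sham replicate 2 was well above the other Sham libraries. Gja5 had a log2 fold change of -0.64 in WT (standard error 0.19, 95% interval -1.04 to -0.25, edgeR adjusted p = 0.0591) and -0.39 in HCN4F (standard error 0.15, 95% interval -0.70 to -0.07, edgeR adjusted p = 0.0980). In WT the adjusted p was 0.0245 with DESeq2, and it was 0.409 in edgeR without WT-TAC replicate 3, where the log2 fold change was -0.50. In HCN4F it was -0.19 when HCN4F-Sham replicate 2 was omitted. It was -0.41 when HCN4F-TAC replicate 2, the library with high Myl7 and Myl4, was omitted. The averaged fall kept an adjusted p under 0.05 in edgeR when any library but WT-TAC replicate 3 was left out, and without that library it was -0.44 with an adjusted p of 0.0629. The interaction did not pass the test (log2 difference 0.26, 95% interval -0.25 to 0.76, edgeR adjusted p = 0.770). This difference was 0.11 without WT-TAC replicate 3 and 0.45 without HCN4F-Sham replicate 2. Genotype made a log2 difference of -0.01 between the Sham groups (95% interval -0.32 to 0.30) and of 0.25 between the TAC groups (95% interval -0.15 to 0.65), which became 0.39 or 0.11 when WT-TAC replicate 2 or 3, respectively, was omitted. An exon of Gpr89 on the opposite strand covers 165 bases (2.87%) of the Gja5 exons, and whether strand was used in counting is not given in the sources used here.

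Gja5 marks both the conduction system and arterial endothelium, and the summed levels of marker genes for these cells are given beside it. Of 5 conduction system genes (Cntn2, Cpne5, Irx3, Tbx3 and Etv1), 0 had an adjusted p under 0.05 in either separate TAC comparison in edgeR, beside 4.54% of all tested genes in WT and 13.6% in HCN4F, and for lists this short a count of 0 says little. In the averaged TAC contrast, 1 of the 5 passed, beside 21.4% of all tested genes. This was Etv1, with a log2 fold change of -0.35 (edgeR adjusted p = 0.0302), and it kept an adjusted p under 0.05 in 10 of the 14 cases in which a library was left out. Without WT-TAC replicate 3 it was -0.21 (edgeR adjusted p = 0.266). The other averaged log2 fold changes were -0.95 for Cntn2, -0.90 for Cpne5, -0.20 for Tbx3 and 0.16 for Irx3, with edgeR adjusted p of 0.278, 0.231, 0.202 and 0.358. Cntn2 ran from 0.458 to 10.5 CPM over the libraries (standard error 0.58), and Cpne5 had only 1 to 18 reads per library (standard error 0.52). The summed level of the 5 genes was 76.8 to 87.5 CPM in WT-Sham and 86.8 and 101 CPM in WT-TAC, and 94.7 to 114 CPM in HCN4F-Sham and 71.5 to 103 CPM in HCN4F-TAC. After TAC the sum lay at the top of the Sham range or above it in WT and overlapped with the Sham range at lower values in HCN4F, while Gja5 was lower in both. Irx3 and Tbx3 made up most of the sum, and the median log2 fold change over the 5 genes was -0.37 in WT and -0.32 in HCN4F. Of 6 arterial endothelial genes (Sox17, Efnb2, Hey1, Dll4, Bmx and Unc5b), 0 passed in either TAC comparison, beside the same shares of all tested genes. Their summed level was 136 and 179 CPM in WT-TAC and 122 to 142 CPM in WT-Sham, and the library with 136 CPM lay within the Sham range. In HCN4F the sums overlapped as well, with 148 to 183 CPM in TAC and 108 to 202 CPM in Sham and a median log2 fold change of -0.04. A part of these cell types in the level of Gja5 was not tested. In RNA from whole tissue, fewer cells of a type and less RNA per cell cannot be told apart.

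Gja4 (ENSMUSG00000050234, chr4:127311421-127314039, minus strand) had 13.7, 10.7, 11.8 and 12 CPM in WT-Sham and 12.1, 21.5, 18.8 and 20 CPM in HCN4F-Sham. After TAC it had 10.8 and 13.9 CPM in WT and 16.8, 20.7, 17.1 and 15.5 CPM in HCN4F. All HCN4F libraries but HCN4F-Sham replicate 1 lay above every WT library. Set against WT, HCN4F had a log2 fold change of 0.58 in Sham (standard error 0.15, 95% interval 0.26 to 0.91, edgeR adjusted p = 0.0945) and 0.50 in TAC (standard error 0.19, 95% interval 0.10 to 0.90, edgeR adjusted p = 0.284). In TAC it was 0.40 without HCN4F-TAC replicate 2, and it moved to 0.33 or 0.70 when WT-TAC replicate 2 or 3, respectively, was omitted. Without HCN4F-Sham replicate 1 the Sham difference was 0.73 with an edgeR adjusted p of 0.00532, and DESeq2 on all groups gave an adjusted p of 0.0208. The averaged genotype difference kept an edgeR adjusted p under 0.05 without HCN4F-Sham replicate 1 or HCN4F-TAC replicate 3, and lost it when any other library was left out, with adjusted p up to 0.269 and log2 fold changes of 0.46 to 0.64. TAC itself made a log2 difference of 0.04 in WT (95% interval -0.35 to 0.44) and -0.04 in HCN4F (95% interval -0.36 to 0.27).

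The summed level of the arterial endothelial genes is given beside Gja4 for each library. It was 142, 127, 122 and 128 CPM in WT-Sham and 108, 202, 171 and 187 CPM in HCN4F-Sham, where replicate 1 was again the lowest. After TAC it was 136 and 179 CPM in WT and 182, 183, 178 and 148 CPM in HCN4F. Between the Sham groups 5 of the 6 genes were higher in HCN4F, with a median log2 fold change of 0.30. Of the 6, 0 had an edgeR adjusted p under 0.05, beside 0.471% of all tested genes, so that this count says nothing particular about them. A list of 8 endothelial genes of all vessels (Pecam1, Cdh5 and others) had summed levels of 764, 1408, 1059 and 1196 CPM in HCN4F-Sham replicates 1 to 4, in the same order as Gja4. In HCN4F-TAC they were 1034, 999, 1075 and 994 CPM, and replicate 2, the highest for Gja4, was next to the lowest. Between the TAC groups the same arterial list had a median log2 fold change of 0.06, and that of Gja4 was 0.50. The part of these cells in the level of Gja4 was not tested.

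**Figure D3:**
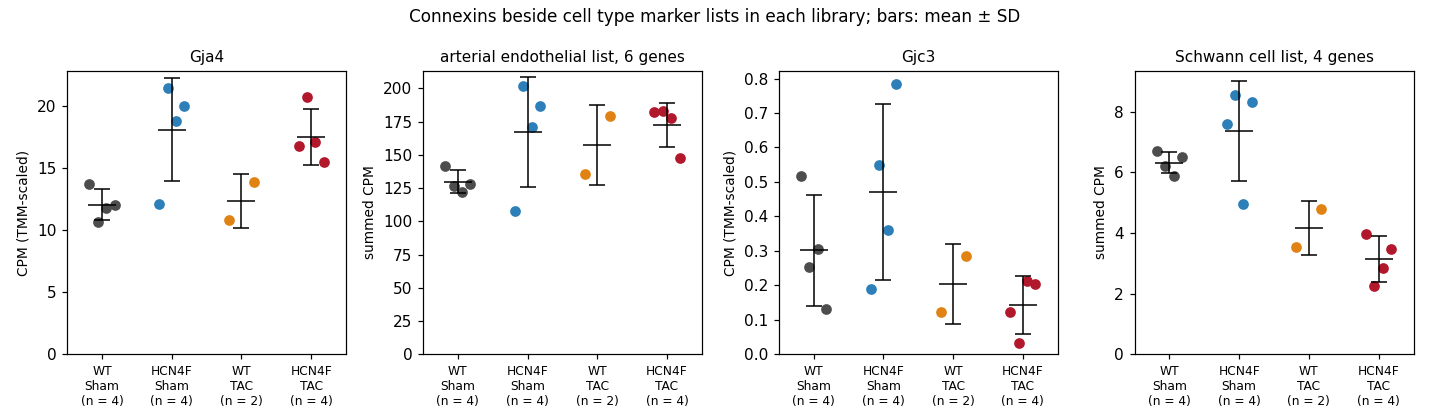
CPM of Gja4 and Gjc3 and summed CPM of the arterial endothelial (6 genes) and Schwann cell (4 genes) marker lists in each library, with mean and SD per group. HCN4F-Sham replicate 1 (first blue point) is the lowest of its group for Gja4 (12.1 CPM) and for the arterial list (108 CPM), and the group means of Gjc3 and of the Schwann cell list are lowest in HCN4F-TAC.

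Gja1 (ENSMUSG00000050953, chr10:56377330-56402513, plus strand) had 259, 293, 348 and 290 CPM in WT-Sham and 267, 224, 317 and 208 CPM in HCN4F-Sham. After TAC it had 297 and 284 CPM in WT and 270, 337, 276 and 337 CPM in HCN4F. The groups overlapped in every comparison. After TAC the log2 fold change was -0.03 in WT (95% interval -0.36 to 0.29) and 0.26 in HCN4F (edgeR adjusted p = 0.181), with an adjusted p of 0.0379 and a log2 fold change of 0.38 without HCN4F-Sham replicate 3. Between the genotypes it was -0.23 in Sham (95% interval -0.49 to 0.04), with -0.35 without HCN4F-Sham replicate 3 and -0.14 without WT-Sham replicate 3, and 0.07 in TAC (95% interval -0.26 to 0.39).

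Gjc1 (ENSMUSG00000034520, chr11:102799579-102819700, minus strand), a connexin of the cardiac nodes and of smooth muscle, had the most even level of the connexins. It had 14.6, 15.9, 16.6 and 16.0 CPM in WT-Sham, 15.4, 21, 19.3 and 19.1 CPM in HCN4F-Sham, 17.3 and 18.2 CPM in WT-TAC and 16.9, 16.7, 20.7 and 18.2 CPM in HCN4F-TAC. Both WT-TAC libraries lay just above the WT-Sham libraries. The log2 fold change after TAC was 0.17 in WT (95% interval -0.07 to 0.42) and -0.04 in HCN4F (95% interval -0.25 to 0.16). Between the Sham groups it was 0.24 (standard error 0.10, edgeR adjusted p = 0.245), and 0.33 with an adjusted p of 0.0491 without HCN4F-Sham replicate 1. The summed level of 6 smooth muscle genes (Myh11, Acta2, Tagln, Cnn1, Smtn and Mylk) was 660, 519, 515 and 528 CPM in WT-Sham and 397 and 377 CPM in WT-TAC. It was 348, 570, 393 and 496 CPM in HCN4F-Sham and 402, 275, 387 and 442 CPM in HCN4F-TAC. In WT the sum was lower in both TAC libraries, where Gjc1 was slightly higher, and HCN4F-Sham replicate 1 was the lowest of its group for both. After TAC in WT 1 of the 6 genes passed (4.54% of all tested genes). This was Smtn, named after its values were seen, with a log2 fold change of -0.36 (edgeR adjusted p = 0.0486). Of the 6, 0 passed after TAC in HCN4F (13.6% of all tested genes) or between the genotypes in Sham (0.471%) or in TAC (0.111%). The part of smooth muscle RNA in the level of Gjc1 was not tested.

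The promoters of Gja1, the connexin with the highest level, and of Gja4 and Gja5, the connexins that passed an averaged test, are shown from RefSeq on GRCm38.p6. RefSeq entries of this kind matched 6 of the 8 genes. Each runs 5′ to 3′ from 250 bases before to 50 bases after the start, in lower case, with matches to 4 motifs in capitals. The motifs, searched on both strands, were TGANTCA (bound by AP-1), AAGTG (the core bound by NKX2-5), AGGTGTGA (bound by T-box factors) and GGGCGG (the GC box), and no match overlapped another. The Gja1 window is chr10:56377050-56377349 on the plus strand, the Gja4 window chr4:127313990-127314289 on the minus strand and the Gja5 window chr3:97032152-97032451 on the plus strand. The Gja5 window lies inside the gene span given above, where RefSeq places the start, and a longer GENCODE transcript starts further upstream.
Gja1: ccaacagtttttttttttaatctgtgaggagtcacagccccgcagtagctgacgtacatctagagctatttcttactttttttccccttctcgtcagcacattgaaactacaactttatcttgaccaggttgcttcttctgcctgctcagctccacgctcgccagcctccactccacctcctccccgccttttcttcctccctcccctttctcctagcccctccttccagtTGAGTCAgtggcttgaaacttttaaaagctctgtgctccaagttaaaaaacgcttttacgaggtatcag
Gja4: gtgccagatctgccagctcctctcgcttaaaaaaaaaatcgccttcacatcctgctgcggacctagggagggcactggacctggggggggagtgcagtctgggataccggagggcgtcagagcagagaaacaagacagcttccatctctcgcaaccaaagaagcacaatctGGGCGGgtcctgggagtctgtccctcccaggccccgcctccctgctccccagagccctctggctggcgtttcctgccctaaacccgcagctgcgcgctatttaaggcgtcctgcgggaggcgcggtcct
Gja5: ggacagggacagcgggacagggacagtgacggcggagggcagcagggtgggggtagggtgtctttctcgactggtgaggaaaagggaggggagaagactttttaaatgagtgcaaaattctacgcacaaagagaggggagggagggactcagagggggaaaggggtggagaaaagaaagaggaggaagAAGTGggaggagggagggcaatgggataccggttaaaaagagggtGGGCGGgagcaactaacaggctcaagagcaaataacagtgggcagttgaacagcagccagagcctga
Gja1 held 1 match to TGANTCA, found in 7.81% of all 32851 mouse promoters of this length. Gja4 held 1 match to GGGCGG (35.7% of promoters). Gja5 held 1 match to AAGTG (46.4%) and 1 to GGGCGG. AGGTGTGA (1.28% of promoters) was in none of the 6 windows. The Gja4 window had 16 CpG dinucleotides, Gja1 8 and Gja5 7, beside a median of 7 over all promoters. These matches are letters only, and no binding was measured.

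**Figure D4:**
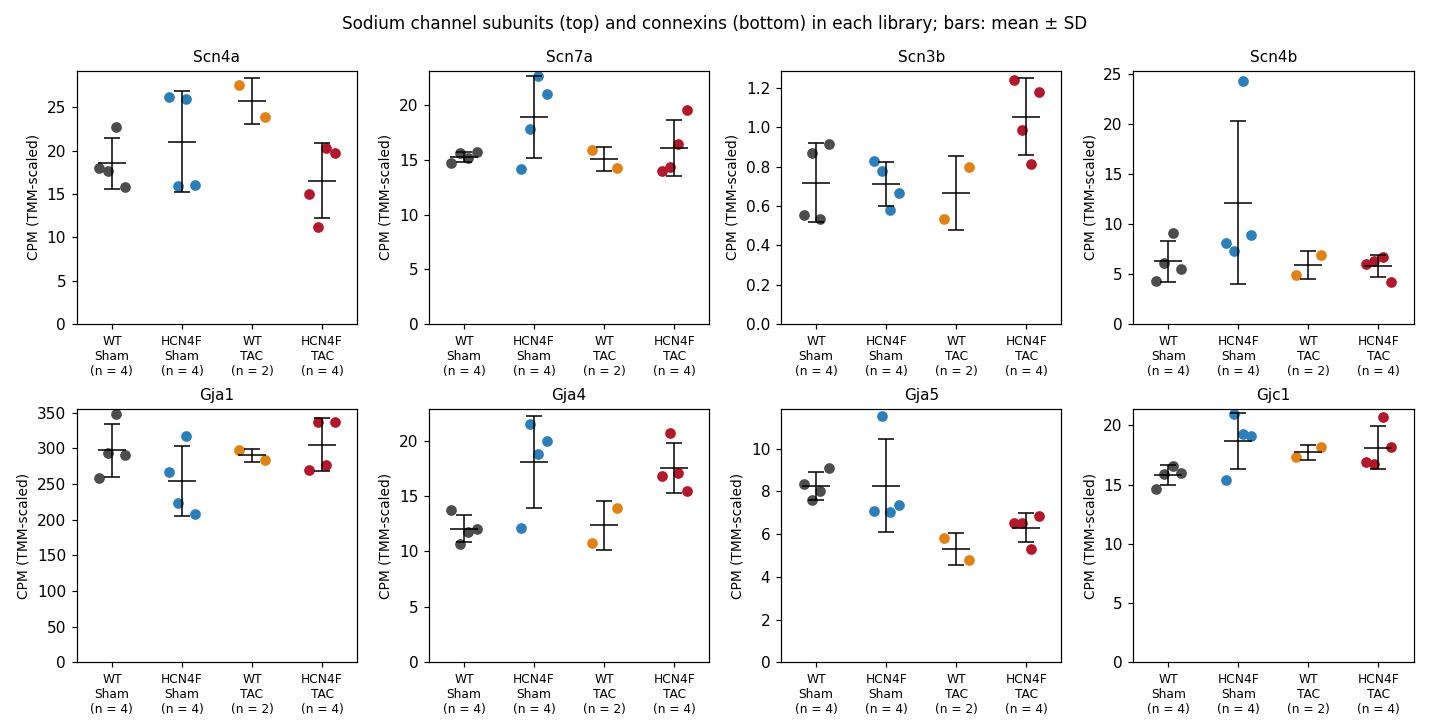
CPM of the sodium channel subunits (top) and connexins (bottom) in each library by group, with mean and SD. Gja5 is lower in every TAC library than in the Sham libraries of its genotype, and HCN4F-Sham replicate 3 stands apart for Scn4b with 24.3 CPM.

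Among the pore-forming subunits, Scn4a (ENSMUSG00000001027, chr11:106318592-106353288, minus strand) encodes the sodium channel of skeletal muscle. It had 18, 17.7, 22.7 and 15.8 CPM in WT-Sham and 27.6 and 23.9 CPM in WT-TAC. In HCN4F it had 26.2, 15.9, 26.0 and 16.1 CPM in Sham and 15.0, 11.2, 20.3 and 19.7 CPM in TAC. Both WT-TAC libraries were above all WT-Sham libraries, and the HCN4F groups overlapped. TAC gave a log2 fold change of 0.47 in WT (standard error 0.25, edgeR adjusted p = 0.286) and -0.35 in HCN4F (standard error 0.21, edgeR adjusted p = 0.303). Without HCN4F-TAC replicate 2 the latter was -0.20. The difference between these responses was -0.82 (95% interval -1.53 to -0.12, unadjusted p = 0.0253 from the model across all genes, edgeR adjusted p = 0.488). After TAC, all HCN4F libraries were below both WT libraries, with a log2 fold change of -0.64 (95% interval -1.18 to -0.10, edgeR adjusted p = 0.321), and -0.50 without HCN4F-TAC replicate 2. In the fit of the WT groups alone, the TAC difference of Scn4a had an edgeR adjusted p of 0.0327. The defining skeletal muscle gene Myh4 had at most 1 count in any library and Myh1 at most 3, and the summed level of 10 skeletal muscle genes was 2.03 to 4.52 CPM over all libraries. Of these genes Tnnt3, Mylpf, Tnni2 and Atp2a1 had 7 to 42 reads per library. A part of skeletal muscle RNA in the level of Scn4a was not tested.

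Scn7a (ENSMUSG00000034810, chr2:66673425-66784914, minus strand) encodes an atypical channel known for sensing sodium rather than voltage. It had 14.7, 15.6, 15.2 and 15.7 CPM in WT-Sham, with a coefficient of variation of 3.02%. It had 14.2, 17.8, 22.7 and 21 CPM in HCN4F-Sham, 15.9 and 14.3 CPM in WT-TAC, and 14, 14.4, 16.5 and 19.6 CPM in HCN4F-TAC. Of the HCN4F-Sham libraries, 3 lay above all WT-Sham libraries and replicate 1 below them. The log2 fold change of HCN4F against WT in Sham was 0.31 (standard error 0.13, edgeR adjusted p = 0.272), and 0.43 with an adjusted p of 0.0479 without HCN4F-Sham replicate 1. After TAC it was -0.02 in WT (95% interval -0.36 to 0.32) and -0.23 in HCN4F (95% interval -0.51 to 0.04), against -0.35 with an edgeR adjusted p of 0.0491 without the same library and -0.14 without HCN4F-Sham replicate 3.

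Of the auxiliary subunits, Scn4b (ENSMUSG00000046480, chr9:45138395-45154152, plus strand) encodes a beta subunit that is bound to the pore by a disulfide bond and is known from neurons and the heart. It had 4.29, 6.06, 9.14 and 5.52 CPM in WT-Sham and 8.09, 7.30, 24.3 and 8.88 CPM in HCN4F-Sham. It had 4.93 and 6.93 CPM in WT-TAC and 6.01, 6.32, 6.75 and 4.23 CPM in HCN4F-TAC. All HCN4F-TAC libraries lay below all HCN4F-Sham libraries, but the size of the difference came from HCN4F-Sham replicate 3. In HCN4F the TAC response was -1.06 on the log2 scale (standard error 0.38, 95% interval -1.89 to -0.23, edgeR adjusted p = 0.0887), and -0.48 without that library. Between the Sham groups the log2 fold change of HCN4F against WT was 0.96 (standard error 0.38, edgeR adjusted p = 0.259), and 0.38 without it. In WT the TAC difference was -0.06 (95% interval -1.10 to 0.98). The coefficient of variation in HCN4F-Sham was 67.0%, higher than in 98.6% of tested genes.

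Scn3b (ENSMUSG00000049281, chr9:40269217-40291618, plus strand), a beta subunit known from neurons and also present in heart, was counted with only 13 to 30 reads per library. It had 0.554, 0.871, 0.535 and 0.915 CPM in WT-Sham and 0.828, 0.776, 0.578 and 0.664 CPM in HCN4F-Sham. It had 0.534 and 0.801 CPM in WT-TAC and 1.24, 0.988, 0.812 and 1.18 CPM in HCN4F-TAC. The HCN4F-TAC libraries were the highest as a group and lay just above both WT-TAC libraries. The log2 fold change was 0.57 after TAC in HCN4F (standard error 0.25, edgeR adjusted p = 0.148) and 0.62 for HCN4F against WT in TAC (95% interval -0.03 to 1.28, edgeR adjusted p = 0.421). Omitting WT-TAC replicate 2 or 3 moved the latter to 0.39 or 0.97, respectively.

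Scn3b and Scn4b lie on chromosome 9, as does Hcn4, at 18.5 and 13.7 megabases from it. Among the 10 nearest tested genes on each side of Scn4b, 0 had an edgeR adjusted p under 0.05 in either genotype comparison. Their lowest edgeR adjusted p was 0.119 in Sham and 0.106 in TAC. The 10 on each side of Scn3b spanned 5.63 megabases. Among these, Hspa8, a heat shock protein, had an edgeR adjusted p of 0.0352 in Sham, and 0 genes were called in either comparison. Over all tested genes, 0.471% had an adjusted p under 0.05 in Sham and 0.111% in TAC.

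Of the other 26 genes for sodium channel subunits and connexins, 9 passed the filter on low counts. Only Gjc3, a connexin of myelinating Schwann cells, had an edgeR adjusted p under 0.05, in the TAC comparison of HCN4F hearts. It had 0.188, 0.548, 0.362 and 0.785 CPM in HCN4F-Sham and 0.124, 0.0329, 0.212 and 0.203 CPM in HCN4F-TAC. These groups overlapped in the lowest Sham library. HCN4F-TAC replicates 1 and 2 lay at or below the level equal to 3 reads (0.128 and 0.108 CPM in these libraries). Gjc3 did not pass the filter in the fit of the compared groups alone or at a mean CPM of at least 1. In the fit over 4 groups its TAC response was -1.74 on the log2 scale (standard error 0.55, edgeR adjusted p = 0.0460). Of all tested genes, 13.6% had an adjusted p under 0.05 in this comparison. In WT the response of Gjc3 was -0.46 (standard error 0.66, edgeR adjusted p = 0.724), and -1.24 to -0.06 when each library was left out in turn. Its levels in WT were 0.517, 0.254, 0.306 and 0.131 CPM in Sham and 0.123 and 0.286 CPM in TAC. The 4 Schwann cell markers counted here (Sox10, S100b, Foxd3 and Gfra3) all fell after TAC in HCN4F by the same test, with a median log2 fold change of -1.17. Their summed level was 4.95 to 8.54 CPM in HCN4F-Sham and 2.24 to 3.98 CPM in HCN4F-TAC, and 5.89 to 6.69 CPM in WT-Sham and 3.53 and 4.78 CPM in WT-TAC. Of these markers 0 passed in WT in this edgeR fit, beside 4.54% of all tested genes, and a difference between the genotypes is not shown by these counts. With DESeq2, Gfra3 had a log2 fold change of -1.11 in WT (DESeq2 adjusted p = 0.0452). In the edgeR fit of the WT groups alone it had -1.09 (edgeR adjusted p = 0.0125). The other markers stayed above 0.05 in WT in both of these fits. In WT every TAC library also lay below every Sham library in the sum, and 39.2% of single tested genes had WT groups that did not overlap. Without HCN4F-TAC replicate 2, which was the lowest for both, Gjc3 had a log2 fold change of -1.38 (edgeR adjusted p = 0.141) and the 4 markers kept an adjusted p under 0.05. When each of the 14 libraries was left out in turn, the edgeR adjusted p of Gjc3 stayed under 0.05 in 6 cases (highest 0.168) and that of S100b in 4 (highest 0.116), while Sox10, Foxd3 and Gfra3 kept it in all 14. The part of Schwann cell RNA in the level of Gjc3 was not tested.

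A list of 36 genes that place or regulate these channels was counted, of which 35 passed the filter: scaffolds and regulators of the sodium channel, components of the intercalated disc and transcription factors of the conduction system. After TAC in WT, 3 rose and 1 fell with an adjusted p under 0.05 in edgeR, whereas 2.92% of all tested genes rose and 1.62% fell (4.54% in all). After TAC in HCN4F, 4 rose and 2 fell, beside 7.20% and 6.41% of all tested genes. Between the genotypes 0 of the 35 passed in Sham or in TAC, beside 0.471% and 0.111% of all tested genes, so that this count says nothing particular about the list. In the averaged contrasts, 7 rose with TAC (Camk2d, Cdh2, Dsp, Pkp2, Vcl, Des and Panx1) and 3 fell (Nedd4l, Etv1 and Hopx), 10 of 35 beside 21.4% of all tested genes. Panx1 alone was higher in HCN4F (log2 fold change 0.62, edgeR adjusted p = 0.0488), 1 of 35 beside 1.26% of all tested genes, and it kept an adjusted p under 0.05 in 2 of the 14 cases in which a library was left out (highest 0.238). The list was not tested against all genes. The median log2 fold change of the list after TAC was 0.18 in WT and 0.02 in HCN4F.

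Pkp2, a desmosomal plakophilin, rose in both genotypes. It had 109, 126, 125 and 124 CPM in WT-Sham and 174 and 155 CPM in WT-TAC, and 134, 97.1, 107 and 119 CPM in HCN4F-Sham and 158, 160, 156 and 144 CPM in HCN4F-TAC. The groups did not overlap in either genotype, with log2 fold changes of 0.44 in WT (standard error 0.11, edgeR adjusted p = 0.0319) and 0.44 in HCN4F (standard error 0.09, edgeR adjusted p = 0.00424). Vcl, which encodes vinculin of the adherens junction, also rose in both, by 0.47 in WT and 0.34 in HCN4F on the log2 scale (edgeR adjusted p = 0.0401 and 0.0348). It had 49.7, 62.7, 68.0 and 54.7 CPM in WT-Sham and 81.5 and 81.6 CPM in WT-TAC. Hopx, a homeodomain protein of the conduction system and working myocardium, fell in both, from 212, 229, 257 and 246 CPM in WT-Sham to 180 and 153 CPM in WT-TAC. In HCN4F it fell from 258, 217, 256 and 186 to 160, 172, 172 and 151 CPM. Its log2 fold changes were -0.51 (edgeR adjusted p = 0.0338) and -0.49 (edgeR adjusted p = 0.00451).

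A further 4 genes of the list passed in a single genotype, and none of the 35 had an edgeR adjusted p under 0.05 for the interaction. Cdh2, the cadherin of the intercalated disc, rose in WT by 0.54 on the log2 scale (edgeR adjusted p = 0.0428) and had a log2 fold change of 0.21 in HCN4F (edgeR adjusted p = 0.263). Leaving out a library moved these values to between 0.45 and 0.60 in WT and between 0.10 and 0.32 in HCN4F. Des, which encodes desmin, rose in HCN4F by 0.44 (edgeR adjusted p = 0.00201) and had 0.19 in WT (edgeR adjusted p = 0.281). Nedd4l, a ubiquitin ligase that acts on sodium channels, fell by 0.31 on the log2 scale in HCN4F (edgeR adjusted p = 0.0302), beside -0.28 in WT (edgeR adjusted p = 0.148). Panx1, a channel protein related in topology to connexins, was the only gene of the list that was called. This is 1 of 35 after TAC in HCN4F, beside 2.75% of all tested genes, so that the count says nothing particular about the list. Panx1 had 1.54, 1.46, 1.66 and 1.84 CPM in HCN4F-Sham and 4.15, 5.33, 2.86 and 3.99 CPM in HCN4F-TAC, against 1.59, 1.31, 1.34 and 1.57 CPM in WT-Sham and 1.89 and 2.00 CPM in WT-TAC. The 4 HCN4F-TAC libraries were above all others, with a log2 fold change after TAC of 1.32 in HCN4F (standard error 0.18, edgeR adjusted p = 0.000196) and 0.42 in WT (standard error 0.23, edgeR adjusted p = 0.286). Without HCN4F-TAC replicate 2 the rise in HCN4F was 1.15 (edgeR adjusted p = 0.000786). For HCN4F against WT in TAC it was 1.07 (standard error 0.22, edgeR adjusted p = 0.0813). When each of the 14 libraries was left out in turn, Pkp2, Hopx, Des and Panx1 kept an edgeR adjusted p under 0.05 in HCN4F in all 14 cases, Nedd4l in 9 and Vcl in 8. In WT, Pkp2 kept it in 9, Hopx in 8, Vcl in 7 and Cdh2 in 6.

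**Figure D5:**
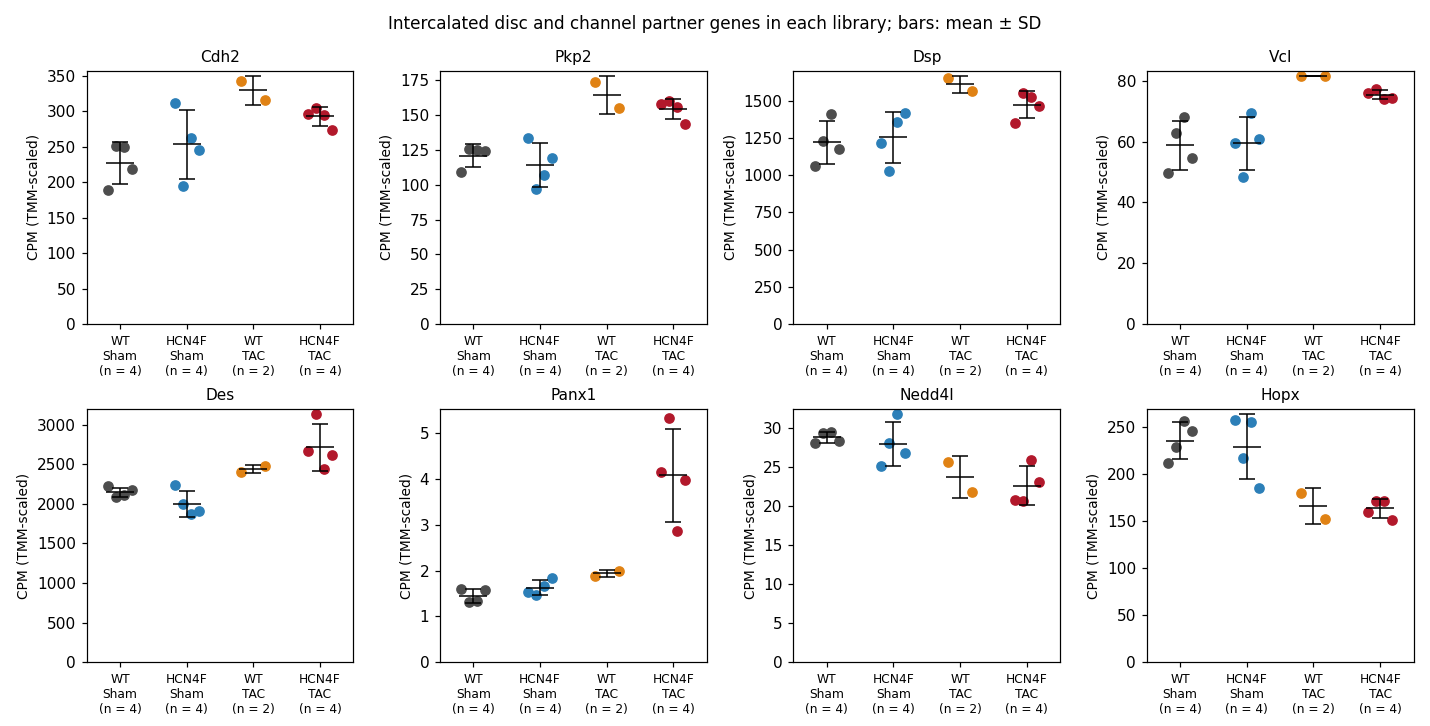
CPM of 8 genes of the intercalated disc and of channel regulation in each library by group, with mean and SD. Pkp2 and Vcl are higher and Hopx lower in TAC than in Sham hearts of both genotypes, and Panx1 lies at 2.86 to 5.33 CPM in HCN4F-TAC and at 2.00 CPM or below in the other groups.

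Over the 14 libraries, the genes whose log2 CPM followed that of a member most closely are given as a description, since their correlations share library depth and group differences. For Gja5 they were Tsacc (Pearson r = 0.922), Trmt112 (0.913) and Dpt (0.898), the last a matrix protein of fibroblasts. For Gja4 they were Ephx1 (0.919), Chst15 (0.909) and Tdrp (0.902). For Gja1 the closest were Klhdc7a (0.923) and Igsf1 (0.894), and for Gjc1 Phf12 (0.916), Ldlrad3 (0.905) and Ralgds (0.891). Scn4a was followed by Gtf3c1 (0.913), Ryr2 (0.890), the calcium release channel of cardiac muscle, and Trmt2b (0.855). Scn7a was followed by Thbs2 (0.863), Acaca (0.858) and Sp1 (0.856). For Scn3b they were Vav1 (0.876), Upp1 (0.865) and Atxn7l1 (0.847), and for Scn4b Ppat (0.835), Umad1 (0.828) and Pms2 (0.827), the lowest of these values. Among the 8 genes themselves the highest correlation was that of Gja4 with Gjc1 (0.649) and the lowest that of Scn4a with Scn3b (-0.518). After the group means were removed, the highest was that of Scn4b with Gja1 (0.603) and the lowest that of Scn4a with Gja4 (-0.645).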

How the data were processed

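Poly(A) RNA of the left ventricle was sequenced in 14 samples. The deposited values are raw counts of reads on each gene, not normalized, on genome build GRCm38 per the labels' processing notes. The sequencing platform is Illumina and the study tested with DESeq2. The aligner, counting program, annotation and use of strand are not given in the sources used here. Samples were grouped by genotype and treatment labels, and the study calls them biological replicates. Of the table's columns, 2 match none of these samples and were left out.

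Genes were filtered with filterByExpr, scaled with TMM and fitted over 4 groups in edgeR 4.0.16 (R 4.3.3, robust quasi-likelihood), with Benjamini-Hochberg adjustment over 15292 genes. The call rule is the study's (adjusted p under 0.05, log2 fold change above 1 or below -1). Values per library are CPM without a pseudocount, and correlations used log2 CPM with a prior count of 2. Exon lengths, overlaps and positions came from GENCODE mouse release M21, which holds 99.5% of the table's gene IDs. The steps were tested on simulated data. The replicate numbers were checked for pairing and did not pair the samples.

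The 8 genes, the gene lists and the marker lists were chosen with earlier results of these data known. Named are the 8 genes, other sodium channel, connexin and list genes with an adjusted p under 0.05 in a comparison, neighbours of the chromosome 9 genes that pass, and the 3 genes most alike to each member at a mean CPM of at least 1. A gene this rule selects, and some genes of the marker lists, are not reported here, and the lists were summed without them. Of 11 marker lists, those that touch a result are given with values. The alternatives tried were DESeq2 1.42.0 over all groups, edgeR restricted to the groups under comparison, size factors of DESeq2 in place of TMM, testing every gene with a count, testing only genes with a mean CPM of 1 or more, estimation without robustness, a block for the replicate number, calls on the adjusted p alone, and leaving out each library. The contrasts averaged over genotype or surgery were added after seeing the data. Intervals of fold changes are 95% intervals of the model. Python 3.11.15 with matplotlib 3.10.9 drew the figures.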

Additional observations from a re-analysis of the deposited data

Results flagged for a closer look

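In 24 groups of 4 libraries (8 genes, 3 groups each), 2 held a library far from the others by Dixon's test at the 95% level, which chance alone gives in about 1 in 20 groups. Scn4b had 24.3 CPM in HCN4F-Sham replicate 3, where the gap to the next library was 0.908 of the range of its group. Gja5 had 11.5 CPM in HCN4F-Sham replicate 2, where the gap was 0.930 of the range. For Scn4a every WT-TAC library lay above the mean of WT-Sham and every HCN4F-TAC library below the mean of HCN4F-Sham, with a log2 interaction of -0.82 that did not pass the edgeR test (adjusted p = 0.488). For Gja1 every HCN4F-TAC library lay above the mean of HCN4F-Sham. In WT, TAC replicate 3 (284 CPM) lay below the Sham mean of 297 CPM, but TAC replicate 2 (297 CPM) was below it by less than the rounding of these values, so the opposite directions rest on 1 WT library. Gja1 had a log2 interaction of 0.30 that did not pass either (edgeR adjusted p = 0.676).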

How the results depend on the processing

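None of the 8 genes was called in the 4 separate comparisons or the interaction under any alternative, except that non-robust estimation called 1 of them after TAC in HCN4F, Scn4b (log2 fold change -1.06, edgeR adjusted p = 0.0458). For the averaged TAC effect 1 gene passed (0 to 1 when a library was left out), and 2 with the replicate number as a block, where Scn4b joined Gja5. For the averaged genotype effect 1 gene passed (0 to 1 when a library was left out), and 0 with the replicate block. Of 1145 recomputed values, 1089 kept their direction and side of the threshold and 40 changed sign, in 14 results. Other settings than leaving out a library turned the sign for Scn7a after TAC in WT without a filter (0.00), for the TAC difference in WT of Scn3b (0.06) and Gja4 (-0.03) with the replicate block, for Scn4b between the TAC groups with the block (0.29), and for the averaged TAC effect of Gja4 with the block (-0.03) and with a mean CPM of at least 1 (-0.01). Leaving out a library turned the sign within these log2 ranges: after TAC in WT, Scn7a -0.10 to 0.06, Scn3b -0.43 to 0.15, Scn4b -0.34 to 0.17, Gja1 -0.10 to 0.05 and Gja4 -0.16 to 0.21. After TAC in HCN4F, the ranges were -0.19 to 0.05 for Gja4 and -0.13 to 0.02 for Gjc1, and between the Sham groups -0.14 to 0.11 for Scn3b and -0.20 to 0.06 for Gja5. Between the TAC groups they were -0.01 to 0.17 for Scn7a, -0.25 to 0.25 for Scn4b and -0.04 to 0.07 for Gjc1, for the interaction -0.25 to 0.11 for Gja4, and for its averaged TAC effect -0.10 to 0.08. The causes were not tested.

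The replicate numbers did not pair the samples (correlations of deviations -0.120 to 0.159 over 18 pairs of libraries, 2 of them above 0.1). The replicate block gave 68, 395, 21 and 7 called genes in the 4 comparisons of the whole table, against 108, 420, 32 and 11 without it. Whole-table counts also moved with single libraries. Without HCN4F-TAC replicate 3, 158 genes were called between the TAC groups and 78 passed for the interaction, which had 0 with all libraries. DESeq2 gave 33 for the interaction. The averaged genotype effect had 192 genes with all libraries and 706 without HCN4F-Sham replicate 1. With the block, the TAC difference of Scn4b in HCN4F was -0.93 (edgeR adjusted p = 0.0213). Of the other genes, all 4 list genes that passed after TAC in WT were above 0.05 with the block, with edgeR adjusted p of 0.073 for Pkp2, 0.0973 for Vcl, 0.121 for Cdh2 and 0.0545 for Hopx. So were Gjc3 (0.0754) and S100b (0.0554) after TAC in HCN4F and the averaged genotype difference of Panx1 (0.103), while the 6 list genes after TAC in HCN4F and the 10 in the averaged TAC contrast stayed under 0.05. Where an arm was left with 1 library, that library was assumed to vary like the other groups. Scn3b has no value at a mean CPM of at least 1. Scn3b had 13 to 30 reads per library, the fewest of the 8 genes, and its 95% interval after TAC in WT was -0.76 to 0.58.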
